A study of Mus musculus with 12 samples.

Results

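*Tcf7*, *Lef1*, *Satb1*, *Bach2* and *Foxo1*, transcription factors of naive and memory T cells, and *Ccr7*, a homing receptor of the same cells, were followed through PD-1+CD44+CD8+ T cells of lupus-prone mice. These 6 genes were chosen by name among 18992 gene identifiers, and all were listed in each library. All 6 were at their lowest in the kidney library, from *Bach2* at 12.2 transcripts per 1000000 to *Foxo1* at 113. With all clusters kept, *Lef1* and *Satb1* had the lowest ratios among the 6 in both comparisons. Without the clusters that carried raised markers of other cells, the organ ratio of *Ccr7* (-2.19 on the log2 scale) was below that of *Lef1* (-1.93). *Tcf7* differed little between the 2 spleen libraries and was lower in kidney.

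The cells were sorted as PD-1+CD44+CD8+ from NZB/W F1 mice, the offspring of NZB and NZW parents, which develop lupus nephritis with age. The groups were spleen at 12 weeks, before disease (12W spleen), spleen at 28 weeks, in advanced disease (28W spleen), and the kidney of that same age (28W kidney). All were of the NZB/W F1 strain, and the labels name no treatment. The titles place the 28W spleen samples at 28 weeks but an age label at 12 weeks, and the titles were followed. Single-cell libraries were made with a 5′ chemistry in which a captured transcript carries its own molecular barcode (unique molecular identifier, UMI). There are 4 labelled samples per group, but the tables pool them, so each group is 1 library with no replicate, and the number of mice behind it is not given in the sources used here. Kidney tissue was digested with collagenase before sorting, a step not described for spleen, so organ and preparation cannot be told apart.

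TCF-1, encoded by *Tcf7*, and LEF-1 are related DNA-binding factors of T cells that work with β-catenin and with Groucho/TLE corepressors, and are known for keeping CD8+ T cells in naive, memory and stem-like states. SATB1 organises chromatin loops, and BACH2 is a repressor that competes with AP-1 factors and restrains effector differentiation. FOXO1 is held out of the nucleus by AKT and drives genes of T cell survival and recirculation, such as *Il7r* and *Klf2*. CCR7 is the chemokine receptor that guides naive and central memory T cells into lymph nodes and the splenic T cell zone. *Ccr7*, *Bach2* and *Foxo1* are also expressed by B cells.

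In GRCm38, *Tcf7* lies at chr11:52252371-52283014 on the minus strand and *Lef1* at chr3:131110471-131224356 on the plus strand. *Satb1* lies at chr17:51736187-51833290 (minus), *Bach2* at chr4:32238804-32586108 (plus), *Foxo1* at chr3:52268336-52353221 (plus) and *Ccr7* at chr11:99144196-99155077 (minus). *Tcf7* has 2 annotated protein-coding starts and *Lef1* has 2, and the counts sum each gene, so isoforms were not told apart. The 250 bases before a RefSeq start (GRCm38.p6) are shown for *Lef1* and *Satb1*, the pair whose levels followed each other most closely below. The *Lef1* window, chr3:131110047-131110296 on the plus strand, lies inside an antisense transcript that is described further on. The *Satb1* window is chr17:51833291-51833540 on the minus strand.
Lef1: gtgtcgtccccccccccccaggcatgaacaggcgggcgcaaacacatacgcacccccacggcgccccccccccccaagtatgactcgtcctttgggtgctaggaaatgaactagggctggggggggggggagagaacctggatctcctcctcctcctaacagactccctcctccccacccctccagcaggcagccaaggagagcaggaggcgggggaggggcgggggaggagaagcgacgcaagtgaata
Satb1: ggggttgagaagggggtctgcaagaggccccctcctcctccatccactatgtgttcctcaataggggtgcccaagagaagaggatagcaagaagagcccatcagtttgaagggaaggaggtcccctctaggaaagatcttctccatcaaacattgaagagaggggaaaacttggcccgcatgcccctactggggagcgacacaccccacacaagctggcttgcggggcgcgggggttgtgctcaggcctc

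The RefSeq promoter windows, 250 bases before to 50 after a start, numbered 13 over *Tcf7*, *Lef1*, *Satb1*, *Bach2* and *Foxo1*, and *Ccr7* had no entry. They were searched on both strands for a TCF/LEF site (CTTTGAT), a FOXO site (TGTTTAC) and a site shared by AP-1 and BACH factors (TGAGTCA), letters that do not overlap each other. Among all 32851 windows of the same length, 3.73% held the TCF/LEF letters, 3.65% the FOXO letters and 5.20% the AP-1 or BACH letters. The 13 windows held 1 match, a FOXO site on the opposite strand just after the downstream start of *Tcf7*. It is shown in capitals in 30 bases around that start, chr11:52282576-52282605 on the minus strand, as the reverse complement of the letters searched.
Tcf7: cctttataggaGTAAACAgacccccgccat

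The libraries held 6481 to 7135 cells in 10 to 12 clusters that the authors made within each library, 33 in all, so cluster numbers are not matched between libraries. Total depth was 29937384 to 34742303 UMIs, and 3 UMIs, the floor set for a count of 0, equalled 0.0864 to 0.100 CPM (UMIs per 1000000 UMIs of the library). All intervals are exact 95% limits of counting error only and say nothing of the spread between mice. Between 52 and 66 cell barcodes were shared by any pair of libraries. The 6 T cell markers summed to between 1258 and 9719 CPM in every cluster, while *Rag1* and *Rag2* of thymocytes were not listed and the thymocyte markers *Dntt* and *Ptcra* together did not exceed 1.86 CPM in any cluster. There were 8 clusters that had raised markers of other cells, defined as at least 10 times the median of clusters and at least 500 CPM. They were cluster 3 of 12W spleen (erythroid), clusters 8 (erythroid) and 10 (B cell and myeloid) of 28W spleen, and clusters 2 and 11 (erythroid), 7 (kidney tubule), 8 (B cell) and 12 (myeloid) of 28W kidney. Values are given with and without these 8 clusters, which leaves 84.6% and 90.4% of cells in the younger and older spleen and 65.4% in kidney. Kidney cluster 11 held T cell markers at 6523 CPM and the most cycling markers of its library, at 4532 CPM. The clusters with the most cycling markers in spleen, 10 at 12 weeks and 6 at 28 weeks, were kept.

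*Tcf7* was at 216 CPM (211 to 221) in spleen at 12 weeks, at 207 (202 to 212) in spleen at 28 weeks and at 76.9 (73.8 to 80.1) in kidney. Per cell these are 1.09, 1.02 and 0.323 UMIs. Across the clusters of 12W spleen its level ran from 101 in cluster 7 through a median of 198 to 319 CPM in cluster 1. In 28W spleen it ran from 62.2 in cluster 10 through 201 to 321 CPM in cluster 3. The spleen ranges lay almost on top of each other, and the lowest splenic cluster was the one with raised B cell and myeloid markers. In kidney the range was 15.4 in cluster 12, the myeloid-marked cluster, through a median of 88.2 to 174 CPM in cluster 10. Of 12 kidney clusters, 4 reached or exceeded the lowest 12W level of *Tcf7*. In 6 of 9 neighbouring pairs in the 12W order, 9 of 10 in 28W spleen and 9 of 11 in kidney, counting limits overlapped, so much of the order within a library is not resolved.

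*Lef1* was at 357 CPM (351 to 363) in spleen at 12 weeks, at 173 (169 to 178) in spleen at 28 weeks and at 45.5 (43.1 to 48.0) in kidney, or 1.80, 0.856 and 0.191 UMIs per cell. Its level in 12W spleen clusters ran from 95.7 in cluster 7 through a median of 398 to 776 CPM in cluster 8. In 28W spleen the range was 40.5 in cluster 10 through 138 to 370 CPM in cluster 3, and in kidney 18.2 in cluster 7 through 41.4 to 86.4 CPM in cluster 8. Every 12W spleen cluster lay above every kidney cluster, whereas 28W spleen overlapped both. Neighbours in the order had overlapping limits in 3 of 9 pairs in 12W spleen, 5 of 10 in 28W spleen and all 11 in kidney, so kidney clusters next to each other in *Lef1* level could not be ordered.

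*Satb1* was at 182 CPM (178 to 187), 84.4 (81.3 to 87.7) and 20.5 (19.0 to 22.2) in 12W spleen, 28W spleen and kidney, or 0.918, 0.417 and 0.0862 UMIs per cell. In 12W spleen clusters it ran from 54.7 in cluster 2 through 178 to 593 CPM in cluster 8. In 28W spleen it ran from 24.6 in cluster 10 through 60.6 to 289 CPM in cluster 11. In kidney it ran from 3.10 CPM in cluster 6, which rests on 6 UMIs in 604 cells, through a median of 10.4 to 107 in cluster 8. Neighbour limits overlapped in 5 of 9, 6 of 10 and 10 of 11 pairs in the same library order.

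*Bach2* had the fewest UMIs of the 6, at 36.6 CPM (34.6 to 38.7), 24.5 (22.9 to 26.3) and 12.2 (11.005 to 13.5) in 12W spleen, 28W spleen and kidney. It ran from 14.2 in cluster 2 through 35.5 to 207 CPM in cluster 8 of 12W spleen. It ran from 11.3 in cluster 1 through 20.6 to 155 CPM in cluster 11 of 28W spleen, and from 2.93 in cluster 11 through 10.2 to 47.1 CPM in cluster 8 of kidney. In both spleen libraries the limits of the highest cluster lay above those of the next, at 56.3 and 48.4 CPM. In kidney they overlapped those of the next, at 29.7 CPM. Neighbour limits overlapped in 7 of 9, 8 of 10 and all 11 pairs.

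*Foxo1* varied least between the libraries, at 182 CPM (177 to 186), 158 (153 to 162) and 113 (109 to 117), or 0.915, 0.779 and 0.473 UMIs per cell. It ran from 69.0 in cluster 7 through 177 to 283 CPM in cluster 1 of 12W spleen, and from 73.7 in cluster 10 through 149 to 256 CPM in cluster 11 of 28W spleen. In kidney it ran from 41.4 in cluster 12 through 108 to 202 CPM in cluster 8. The 3 ranges overlapped, and 10 of 12 kidney clusters reached the lowest 12W level. Neighbour limits overlapped in 6 of 9, 7 of 10 and 9 of 11 pairs.

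*Ccr7* was at 309 CPM (303 to 315), 181 (176 to 185) and 78.2 (75.1 to 81.5), or 1.56, 0.892 and 0.328 UMIs per cell. It ran from 135 in cluster 7 through 310 to 930 CPM in cluster 8 of 12W spleen, and from 92.9 in cluster 2 through 171 to 441 CPM in cluster 11 of 28W spleen. In kidney it ran from 14.0 in cluster 6 through a median of 26.8 to 460 CPM in cluster 8. That cluster was above every 28W spleen cluster, though its limits overlapped those of the highest, while the other 11 kidney clusters were at 127 CPM or less. Neighbour limits overlapped in 4 of 9, 8 of 10 and 7 of 11 pairs.

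**Figure D1:**
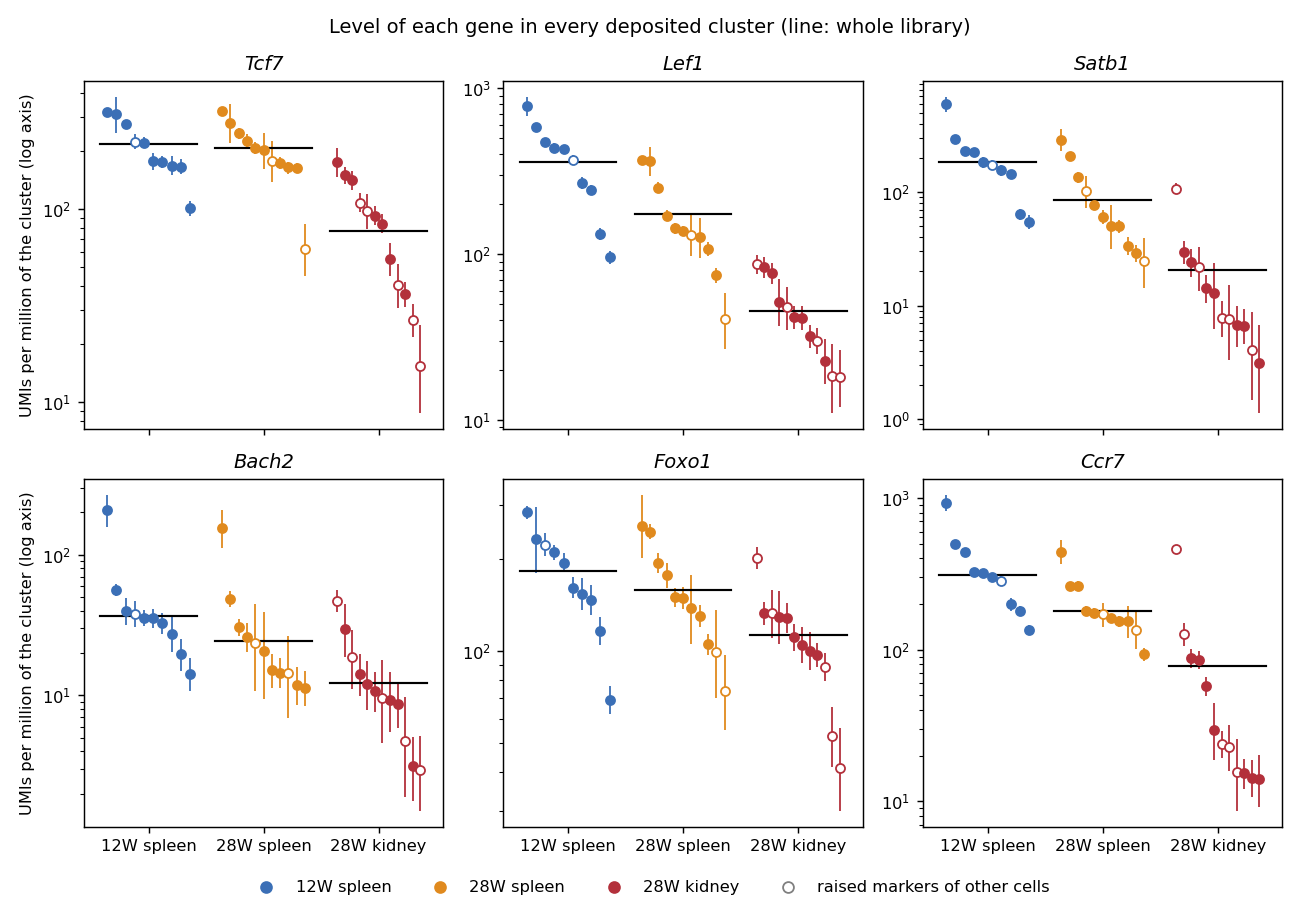
The level of each gene (vertical, UMIs per 1000000 UMIs of the cluster, log axis) is plotted for all 33 clusters, ordered from high to low within each library, with exact 95% counting limits as bars and the library level as a black line. Open circles are the 8 clusters with raised markers of other cells. All 12W spleen points of *Lef1* sit above all its kidney points, while those of *Foxo1* and *Tcf7* overlap, and for *Satb1* and *Ccr7* cluster 8 of kidney sits far above the rest of that library.

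Cluster 8 of 12W spleen and cluster 11 of 28W spleen headed the CPM order for several of these genes but held little RNA. They had 928 and 1288 UMIs per cell, the former the least of its library, and mitochondrial transcripts made up 8.98% and 6.64% of their UMIs. Counted per cell, cluster 8 of 12W spleen held 0.720 *Lef1* UMIs, and the highest was cluster 10 with 3.48. For *Ccr7* the same clusters held 0.863 and 4.32 UMIs per cell. Cluster 10 of 12W spleen was the deepest of its library, with 14345 UMIs per cell, and also had the highest level of the cycling markers. The top of the order within a library therefore depends on whether UMIs are read per 1000000 or per cell.

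**Figure D2:**
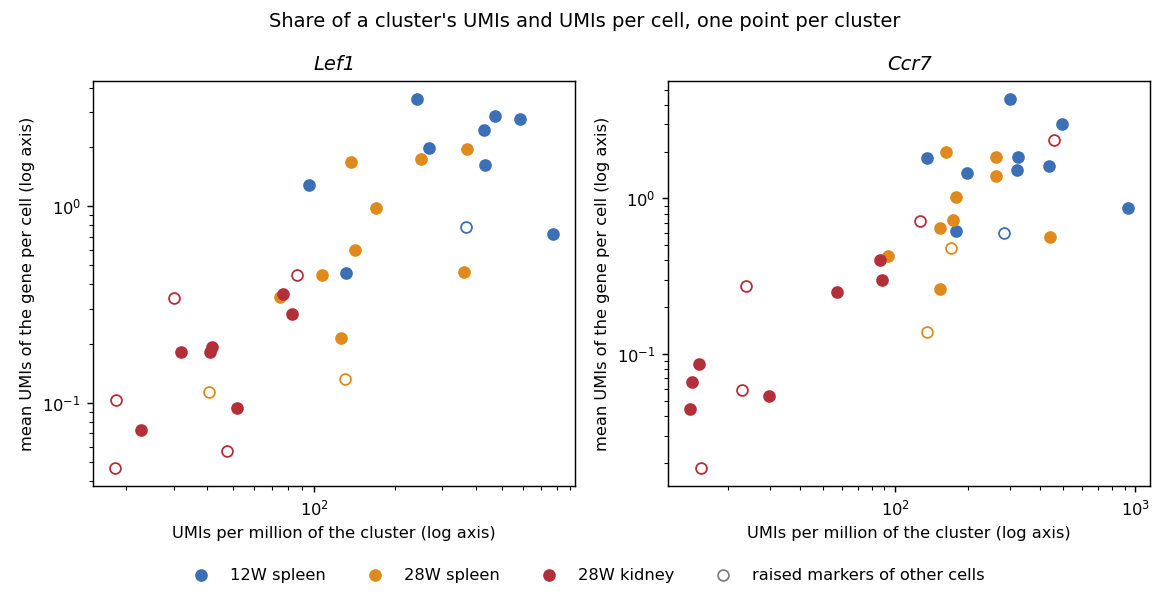
Each point is a cluster, with its level in UMIs per 1000000 UMIs (horizontal, log axis) against mean UMIs per cell (vertical, log axis) for *Lef1* and *Ccr7*. The 12W spleen point farthest to the right in each panel is cluster 8, at 776 CPM for *Lef1* and 930 for *Ccr7*, and several points with lower CPM lie above it per cell. Kidney points lie low on both scales, except the open circle of cluster 8 for *Ccr7* at 2.37 UMIs per cell.

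The change with age was read as the ratio of 28W spleen over 12W spleen. These libraries also differ in disease stage and have no replicate, so age, disease and library cannot be told apart. *Lef1* was 2.06-fold lower at 28 weeks, a log2 ratio of -1.04 (95% limits -1.09 to -0.996), and *Satb1* was 2.16-fold lower (-1.11, -1.18 to -1.04). *Ccr7* was 1.71-fold lower (-0.77, -0.82 to -0.73) and *Bach2* 1.49-fold lower (-0.58, -0.71 to -0.45). *Foxo1* (-0.20, -0.26 to -0.15) and *Tcf7* (-0.06, -0.11 to -0.02) were close to the median of all genes. Thus 2 of 6 were at least 2-fold lower and none was 2-fold higher. Of the 7434 genes that reached 10 CPM in at least 1 of both libraries, 1.05% were at least 2-fold lower, 1.92% at least 2-fold higher and 66.7% lower by any amount, and the median log2 ratio was -0.10 against -0.68 for the 6. From the lowest ratio, *Satb1* ranked 59, *Lef1* 73, *Ccr7* 138 and *Bach2* 262 of 7434.

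Both 2-fold differences with age lay near the threshold. When each cluster of either library was left out in turn, the ratio of *Lef1* stayed between -1.37 and -0.82 and passed under 2-fold for 5 of 21 clusters. These were clusters 1 (-0.82) and 4 (-0.94) of 12W spleen and clusters 2 (-0.91), 4 (-0.97) and 6 (-0.97) of 28W spleen. That of *Satb1* stayed between -1.53 and -0.91 and passed under 2-fold without cluster 1 of 12W spleen (-0.91) or cluster 2 of 28W spleen (-0.95). For *Tcf7* the ratio took both signs, from -0.21 to 0.10. Without the clusters with raised markers of other cells, the ratios of *Lef1* and *Satb1* were -1.01 and -1.10, with 0.962% of genes at least 2-fold lower.

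The organ difference was read as the ratio of 28W kidney over 28W spleen, which shares the 28W spleen library with the age comparison. *Satb1* was 4.11-fold lower in kidney, a log2 ratio of -2.04 (-2.17 to -1.91), and *Lef1* 3.81-fold lower (-1.93, -2.01 to -1.84). *Tcf7* was 2.69-fold lower (-1.43, -1.50 to -1.36), *Ccr7* 2.31-fold lower (-1.21, -1.28 to -1.14) and *Bach2* 2.01-fold lower (-1.01, -1.19 to -0.82). *Foxo1* was 1.40-fold lower (-0.49, -0.55 to -0.42). Thus 5 of 6 were at least 2-fold lower. Of 7686 genes, 1.56% were at least 2-fold lower, 5.74% at least 2-fold higher and 38.9% lower by any amount, and the median log2 ratio was 0.08 against -1.32 for the 6. From the lowest ratio, *Satb1* ranked 17, *Lef1* 19, *Tcf7* 43, *Ccr7* 76, *Bach2* 118 and *Foxo1* 455 of 7686.

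The kidney levels of *Satb1*, *Ccr7* and *Bach2* rested to a large extent on cluster 8. It held 7.62% of kidney cells but 55.0% of *Ccr7* UMIs, 48.9% of *Satb1* and 36.1% of *Bach2*, against 17.8% of *Lef1*, 16.8% of *Foxo1* and 13.1% of *Tcf7*. All 6 B cell markers had their highest kidney level there, among them *Cd79a* at 1074 CPM, *Ebf1* at 278 and *Ms4a1* at 225, while *Cd8a* was at 168 against a kidney median of 719. The summed B cell list was at 1990 CPM in cluster 8 and at 10.9 to 176 in the other 11 kidney clusters, and *Pax5* was at 0 in the median cluster. Cluster 10 of 28W spleen, with raised B cell (2658 CPM) and myeloid markers, did not have high levels of these genes. It held *Satb1* at 24.6, *Bach2* at 14.5 and *Ccr7* at 171 CPM, against medians of 60.6, 20.6 and 171 in its library. Without cluster 8 alone, *Satb1* was at 11.6 CPM in kidney and 7.30-fold lower than in 28W spleen (-2.87), and *Ccr7* was at 38.8 CPM and 4.65-fold lower (-2.22). How the markers of other cells bear on the expression of these genes within T cells was not tested beyond leaving clusters out.

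Without all 8 clusters with raised markers of other cells, the organ ratios were -1.93 for *Lef1*, -2.76 for *Satb1*, -2.19 for *Ccr7*, -1.37 for *Bach2*, -1.26 for *Tcf7* and -0.51 for *Foxo1*. This setting leaves out the cycling cluster of kidney but keeps that of spleen, and the median organ ratio of the 5 cycling markers went from 1.11 to -1.67. The count of members at least 2-fold lower was 5 of 6, with 2.66% of genes called, and the median of the members was -1.65. *Bach2*, at 9.56 CPM in kidney and 24.8 in 28W spleen, passed the filter of 10 CPM only through spleen. It could therefore enter this count only as a lower gene. With each cluster left out in turn, the call for *Bach2* ended for 11 of 23 clusters, with a ratio as small as -0.73 without cluster 3 of 28W spleen. The call for *Ccr7* ended only without cluster 1 of kidney (-0.99), and those of *Tcf7*, *Lef1* and *Satb1* for none of the 23. *Lef1* was the member whose organ ratio was least altered by the removal of these clusters.

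**Figure D3:**
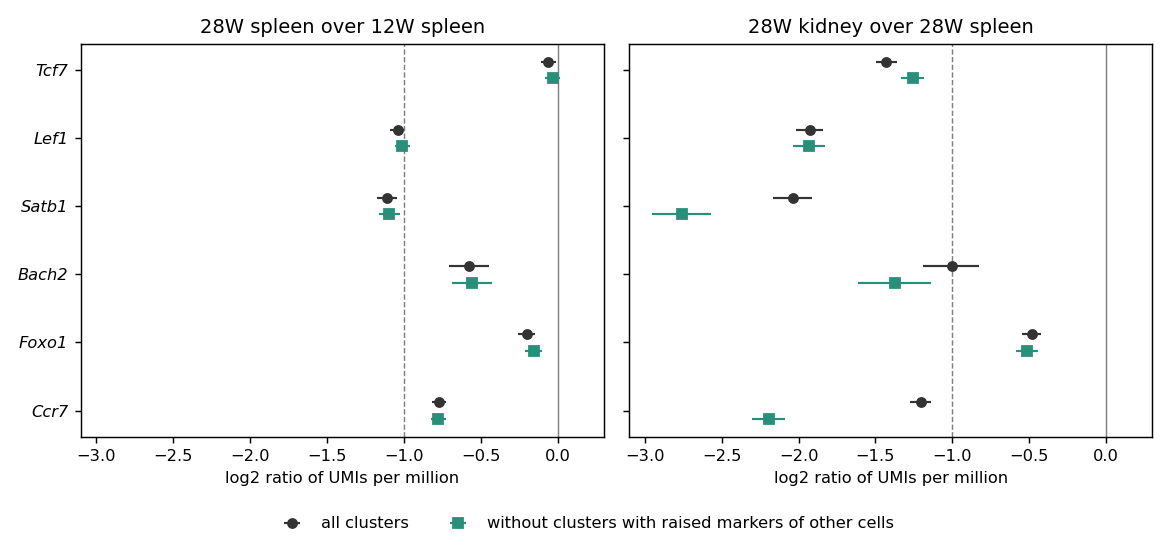
The log2 ratio of each gene between libraries (horizontal) with exact 95% counting limits is plotted for all clusters (circles) and without the 8 clusters with raised markers of other cells (squares), with the dashed line at 2-fold lower. In the age comparison circles and squares nearly coincide, with *Tcf7* at -0.06 near 0. In the organ comparison the squares of *Satb1* (-2.76) and *Ccr7* (-2.19) lie well to the left of their circles (-2.04 and -1.21).

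The clusters were also compared as ranges between 12W spleen and 28W kidney, libraries that differ in both age and organ. *Lef1* was the only one of the 6 whose 12W clusters all lay above all kidney clusters, with a lowest 12W level of 95.7 CPM against a highest kidney level of 86.4. The counting limits of these 2 clusters overlapped, at 87.3 to 105 and 75.8 to 98.0 CPM. Such separation was found for 0.115% of 7835 genes. Without the clusters with raised markers of other cells it held for 3 of 6, adding *Satb1* (54.7 against 29.6) and *Ccr7* (135 against 88.0), and for 0.702% of genes. With a total without receptor segment, mitochondrial and ribosomal genes it held for 1 of 6 and 0.23% of genes. Kidney clusters at or above the lowest 12W level numbered 1 for *Satb1*, 1 for *Ccr7*, 4 for *Bach2*, 4 for *Tcf7* and 10 for *Foxo1* when all clusters were kept.

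*Lef1* and *Satb1* are compared first by their UMIs within a library. With all clusters kept, the ratio of *Lef1* to *Satb1* UMIs was 1.96 (1.90 to 2.02) at 12 weeks and 2.05 (1.96 to 2.15) at 28 weeks in spleen, and 2.22 (2.01 to 2.44) in kidney. Without kidney cluster 8 the kidney ratio was 3.57 (3.15 to 4.06). Without all clusters with raised markers of other cells it was 3.67 (3.18 to 4.24), above the limits of both spleen libraries at 1.95 (1.89 to 2.01) and 2.07 (1.97 to 2.17). That of *Lef1* to *Tcf7* UMIs was 1.65 (1.60 to 1.70), 0.837 (0.807 to 0.867) and 0.592 (0.553 to 0.633) in the same order. Within clusters it ran from 0.753 to 2.58 with a median of 1.68 in the younger spleen, from 0.455 to 1.30 with a median of 0.735 in the older, and from 0.296 to 1.19 with a median of 0.503 in kidney. These genes encode related factors, and their relative levels differed between libraries by more than counting error. The ranges of the *Lef1* to *Tcf7* ratio over clusters overlapped between every pair of libraries. *Lef1* to *Foxo1* was at 1.96, 1.10 and 0.404, the latter below the limits of both spleen libraries.

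Across the 33 clusters, the Pearson correlation of log2(CPM + 10) was highest for *Lef1* with *Satb1* among the 15 pairs, at 0.97, and was 0.90 once the mean of each library was subtracted. It was 0.98 over the 25 clusters without raised markers of other cells. *Satb1* with *Ccr7* was at 0.90 (0.76 with library means subtracted), *Tcf7* with *Lef1* at 0.86 (0.78), *Lef1* with *Ccr7* at 0.85 (0.60), *Satb1* with *Bach2* at 0.84 (0.82) and *Tcf7* with *Foxo1* at 0.84 (0.81). The lowest pair was *Foxo1* with *Ccr7*, at 0.58 (0.37). *Tcf7* with *Ccr7* was at 0.67 over all clusters but 0.32 with library means subtracted, and 0.18 within the 12 kidney clusters. Clusters of a library share its depth and preparation, so these values are descriptions.

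**Figure D4:**
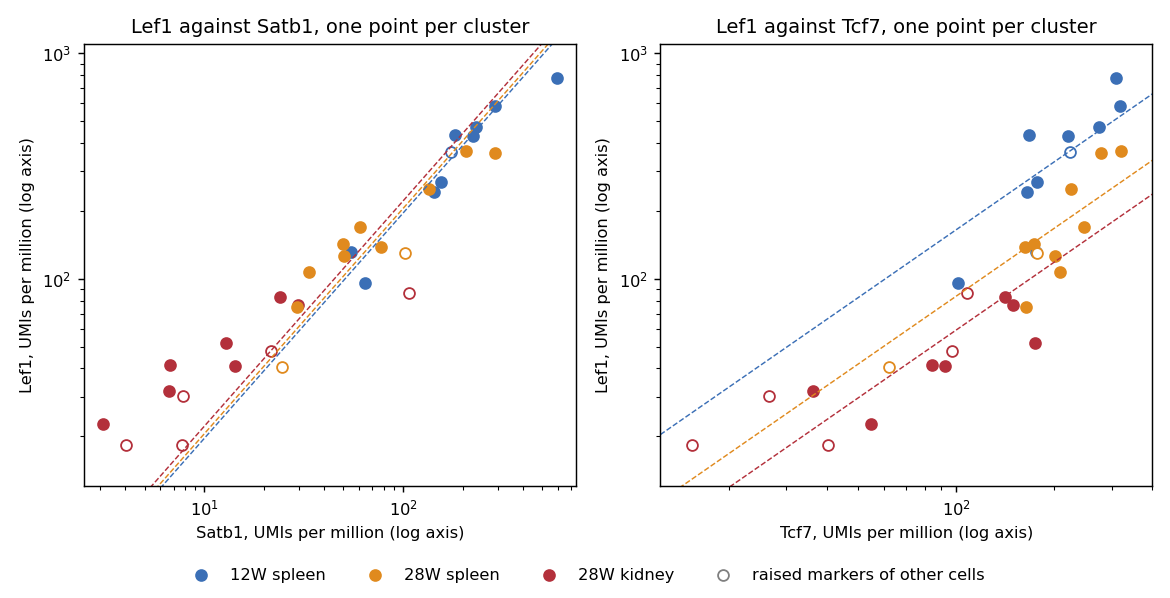
*Lef1* is plotted against *Satb1* (left) and against *Tcf7* (right), both in UMIs per 1000000 UMIs of the cluster on log axes, with 1 point per cluster and a dashed line at each library's own UMI ratio. On the left the 3 lines, drawn from all clusters, lie close together (ratios 1.96 to 2.22). Without the clusters with raised markers of other cells the kidney ratio was 3.67. On the right they are apart, at 1.65 for 12W spleen, 0.837 for 28W spleen and 0.592 for kidney.

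The genes whose pattern over the 33 clusters was most like each member were ranked, 3 for each, among 5503 genes with a mean of at least 20 CPM. For *Tcf7* they were *Nsg2* (0.95), *Dgka* (0.90), a diacylglycerol kinase that dampens T cell receptor signalling, and *Pim2* (0.89), a survival kinase. For *Lef1* they included *Satb1* (0.97) and *Treml2* (0.93), and for *Satb1* they included *Lef1* (0.97) and *Ephx1* (0.93). For *Bach2* they were *Foxp1* (0.94), a forkhead factor of naive T cell quiescence, *Cyth3* (0.92) and *Il4ra* (0.92), the IL-4 receptor. For *Foxo1* they were *Jak1* (0.90), a cytokine receptor kinase, *Cyth1* (0.89) and *Peli1* (0.88), a ubiquitin ligase. For *Ccr7* they included *Satb1* (0.90) and *Ephx1* (0.87). With library means subtracted, 11 of these 18 genes stayed among the 3 most like their member, and none did for *Ccr7*.

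The levels of these genes were set beside 6 cytotoxic genes, *Gzmb*, *Gzmk*, *Prf1*, *Nkg7*, *Ccl5* and *Cxcr6*, summed per cluster. The summed level was 1922 and 5021 CPM in the younger and older spleen and 10756 in kidney. *Gzmk*, a granzyme, was at 25.1, 138 and 574 CPM in the same order. *Ccl5*, a chemokine gene, made up most of the sum in each library, at 1327, 3990 and 7495 CPM. The sum therefore weighs *Ccl5* most, and correlations with its single genes are not given. In the 7 kidney clusters without raised markers of other cells the correlation with this sum was -0.96 for *Satb1*, -0.94 for *Ccr7*, -0.92 for *Lef1* and -0.82 for *Tcf7*, against -0.46 for *Bach2* and -0.34 for *Foxo1*. Over all 12 kidney clusters it was -0.58, -0.48, -0.28, -0.05, -0.47 and -0.08 in the same order, so these relations rest on leaving those clusters out. In the 9 such clusters of 28W spleen it was -0.64, -0.55, -0.65, -0.40, -0.36 and -0.26, and in the 9 of 12W spleen between -0.35 and 0.25. With mean UMIs per cell the correlation in the 7 kidney clusters was -0.02 for *Satb1*, -0.01 for *Ccr7* and -0.10 for *Lef1*, but -0.56 for *Tcf7* and -0.85 for *Bach2*.

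Cluster 6 of kidney, with the highest cytotoxic sum of all clusters at 20833 CPM, had *Satb1* at 3.10 CPM, *Ccr7* at 14.0, *Lef1* at 22.8 and *Tcf7* at 54.9. Clusters 5 and 9 of kidney, with the lowest sums of the 7 at 7728 and 8136 CPM, had *Lef1* at 82.9 and 76.4, *Satb1* at 24.1 and 29.6, *Ccr7* at 88.0 and 86.0 and *Tcf7* at 141 and 149. In spleen, the cluster with the highest sum at 12 weeks, cluster 2 at 9450 CPM, had the least *Satb1* (54.7) and *Bach2* (14.2) of its library, and its *Lef1* was 132 CPM against a median of 398. Its *Tcf7*, at 175 CPM, was near the median of 198. Cluster 9 of 28W spleen had a sum of 20766 CPM, close to that of kidney cluster 6, with *Tcf7* at 201, *Ccr7* at 153, *Lef1* at 126 and *Satb1* at 50.4 CPM. These 4 levels were each above those of kidney cluster 6, with limits that did not overlap.

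In droplet data free RNA adds counts to every cell. Cluster 12 of kidney, which had myeloid markers at 18883 CPM and the least T cell markers of the library, held *Satb1* at 7.70 CPM (3.33 to 15.2), *Lef1* at 18.3 (11.02 to 28.6) and *Tcf7* at 15.4 (8.81 to 25.0). The *Satb1* levels of kidney clusters 1, 3 and 6, at 6.65, 6.71 and 3.10 CPM, lay below that value, and the *Lef1* limits of cluster 6 (16.5 to 30.6) overlapped it. *Satb1* in these clusters was therefore not above its level in cluster 12. Cluster 12 itself held T cell markers at 1574 CPM, so its levels are no measure of free RNA, whose share was not tested. *Tcf7* in clusters 1, 3 and 6, at 36.2, 84.0 and 54.9 CPM, was above the limits of cluster 12. *Ccr7*, which dendritic cells can also express, was at 127 CPM in cluster 12.

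*Pdcd1*, which encodes PD-1 and was a gate of the sort, was at 36.6, 34.7 and 115 CPM in the libraries of 12W spleen, 28W spleen and kidney. In the 7 kidney clusters without raised markers of other cells its correlation was -0.94 with *Lef1*, -0.93 with *Satb1*, -0.90 with *Ccr7* and -0.69 with *Tcf7*. In the 9 such clusters of 28W spleen these were -0.25, -0.11, -0.14 and -0.08, and in the 9 of 12W spleen -0.20, -0.02, -0.29 and -0.01. Over all 12 kidney clusters they were -0.53, -0.85, -0.82 and -0.16.

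**Figure D5:**
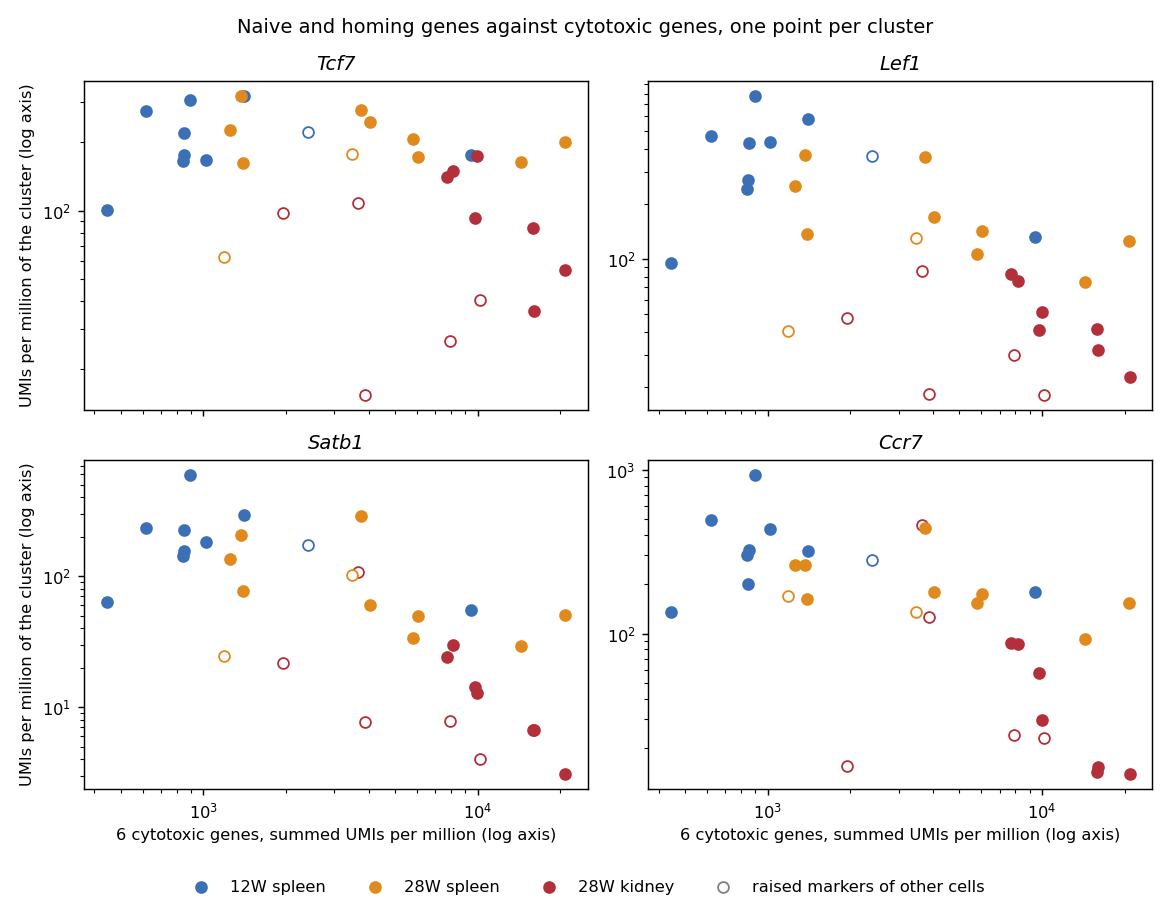
*Tcf7*, *Lef1*, *Satb1* and *Ccr7* (vertical) are plotted against the sum of 6 cytotoxic genes (horizontal), both in UMIs per 1000000 UMIs on log axes. There is 1 point per cluster, with open circles for clusters with raised markers of other cells. *Ccl5* made up most of this sum in each library. The 7 filled kidney points tend downward from left to right in each panel (correlations -0.82 to -0.96), though not in strict order. *Tcf7* is highest, at 174 CPM, in cluster 10 with a sum of 9970. The filled 28W spleen point farthest to the right, cluster 9, keeps *Tcf7* at 201 CPM at nearly the same sum as kidney cluster 6 at 54.9.

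Of 11 listed partners of the TCF/LEF factors, 6 had enough UMIs, and 0 were 2-fold lower or higher in either comparison. Of all genes 1.05% were at least 2-fold lower and 1.92% higher with age, and 1.56% and 5.74% in the organ comparison. A count of 0 of 6 is close to these shares and marks nothing particular to the partners. The medians were 0.17 for age and -0.04 for organ, against -0.10 and 0.08 for all genes. β-Catenin (*Ctnnb1*) was at 77.3, 60.3 and 51.0 CPM in the libraries of 12W spleen, 28W spleen and kidney. The corepressor *Tle3* was at 36.9, 50.5 and 50.8 CPM and the related *Aes* at 187, 196 and 231. *Tcf7l1* and *Tcf7l2*, the other 2 members of the TCF/LEF family, were at 2.07 CPM or less in all libraries.

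Around *Foxo1*, the 6 tested of 7 family members and regulators likewise had 0 at 2-fold in either direction. That count too is close to the shares of all genes. *Foxp1* was at 265, 201 and 113 CPM, with log2 ratios of -0.40 for age and -0.83 for organ. The 8 recirculation genes that FOXO1 is known to drive or that work with CCR7 divided. In the age comparison 1 of 8 was at least 2-fold lower, *Ccr9* (-2.67), a gut homing receptor, beside 1.05% of all genes. *Ccr9*, at 62.2 CPM in 12W spleen and 9.74 in 28W spleen, passed the filter only through the younger spleen, so that call supports no direction. *Klf2* (0.60) and *Il7r* (0.71) were higher by less than 2-fold. In the organ comparison 3 of 7 were at least 2-fold lower, among them *Klf2* (-1.81) and *Il7r* (-1.11), beside 1.56% of all genes, and the median of the 7 was -0.97. *S1pr1*, the receptor for tissue egress, had a ratio of -0.97, and the integrin subunit *Itga4*, which serves entry into tissue, was at 278 and 320 CPM in 28W spleen and kidney.

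Of 5 tested partners and antagonists of SATB1 and BACH2, 3 were at least 2-fold higher in kidney and 0 lower, *Maff* (3.65), a small MAF protein, *Prdm1* (2.65), which encodes the effector repressor BLIMP-1, and *Mafg* (1.05). Their levels were low, at 1.03, 2.0 and 5.87 CPM in 28W spleen and 12.9, 12.5 and 12.2 in kidney. All 3 and *Mafk* passed the filter of 10 CPM only through kidney, so the count supports no direction for the list. Of all genes 5.74% were at least 2-fold higher in kidney. The other tested genes, *Bach1* and *Mafk*, had ratios of 0.25 and 0.21. Without the clusters with raised markers of other cells only 2 genes of this list had enough UMIs and 1 was at least 2-fold higher. In the age comparison only *Bach1* had enough UMIs, at 13.8 and 12.0 CPM.

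Other genes of naive and memory cells were lower in kidney in part. Of 11 tested, 6 were at least 2-fold lower and 0 were 2-fold higher, beside 1.56% and 5.74% of all genes, and the median of the 11 was -1.03. The 6 were *Dapl1* (-1.91), *Actn1* (-1.88), *Nsg2* (-1.76), *Myb* (-1.75), a factor of stem-like CD8+ T cells, *Slamf6* (-1.05), a surface marker of the same cells, and *Id3* (-1.03), an inhibitor of E proteins. *Ltb* was at 1073 and 1173 CPM in 28W spleen and kidney, and *Eomes*, a T-box factor of memory and effector cells, at 72.9 and 93.3. In the age comparison 1 of 12 was at least 2-fold lower, *Igfbp4* (-1.35), beside 1.05% of all genes, and the median of the 12 was -0.29. *Nsg2*, the gene most like *Tcf7*, was at 138 and 146 CPM in the spleen libraries and 43.0 in kidney.

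Of 7 tested transcription factors of effector cells, 3 were at least 2-fold higher in kidney and 0 lower, *Nr4a1* (1.86), an early gene of T cell receptor signalling, *Id2* (1.82), the effector counterpart of *Id3*, and *Zeb2* (1.08), with a median of 0.97. Of all genes 5.74% were at least 2-fold higher in kidney and 1.56% lower. *Tox* and *Batf* were at 0.06 and 0.07, and *Zeb2* and *Irf4* passed the filter only through kidney. Without the clusters with raised markers of other cells 2 of 6 were at least 2-fold higher (median 0.47), and *Nr4a1* was at -0.65. The share of all genes at least 2-fold higher in that setting is not given here. With age 1 of 5 was at least 2-fold lower, *Nr4a1* at -1.45, and 0 were at least 2-fold higher (median -0.13), beside 1.05% and 1.92% of all genes. *Tbx21*, which encodes T-bet, was at 19.2, 37.5 and 73.6 CPM in the libraries of 12W spleen, 28W spleen and kidney, 0.97 on the log2 scale in each comparison. The level of *Nr4a1* was 67.4, 24.6 and 89.3 CPM in the same order. Of the 6 cytotoxic genes 3 were at least 2-fold higher with age (median 1.21) and 4 in kidney (median 1.66). The shares of all genes were 1.92% and 5.74%. *Cxcr6* went the other way with age, at 89.4 CPM in 12W spleen and 46.5 in 28W spleen (-0.94). *Gzmb*, at 8.81 CPM in 12W spleen and 28.3 in 28W spleen, passed the filter of the age comparison only through the older spleen. *Gzmk* had ratios of 2.46 and 2.06.

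An annotated antisense gene at the start of *Lef1*, *Gm43352* (chr3:131109026-131112090, minus strand), ran parallel to *Lef1*. It was singled out after its values were seen. Its level was 38.7 CPM (36.6 to 40.8) in the younger spleen, 18.05 (16.6 to 19.6) in the older and 3.81 (3.14 to 4.57) in kidney, from 1344, 578 and 114 UMIs. These are 10.8%, 10.4% and 8.36% of the *Lef1* UMIs. Its log2 ratios were -1.10 (-1.24 to -0.96) with age and -2.24 (-2.55 to -1.95) in kidney, beside -1.04 and -1.93 for *Lef1*. The correlation with *Lef1* over the 33 clusters was 0.94, and 0.83 with library means subtracted. The *Lef1* window shown above lies within this gene, and whether the counting used strand is not stated for these tables, so reads of the overlapping genes cannot be told apart. In 12W spleen the antisense genes at the other members had few UMIs, with *A630014C17Rik* at *Tcf7* at 0.720 CPM, *Bach2os* at 1.76 and *Gm20402* at *Foxo1* at 0.921.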

How the data were processed

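Sorted PD-1+CD44+CD8+ T cells from spleen and kidney were profiled in 3 pooled libraries. Per library, the authors deposited mean UMI counts of each gene in each cluster, scaled to the median UMIs per cell, with cell barcodes and cluster numbers. The submitters' processing notes name Cell Ranger 2.1.1, R 3.6.1 and GRCm38. Fold changes and p-values of clusters against other cells, made by the authors, were not used, nor were clonotypes. Because each column held whole multiples of 1 step, UMIs were recovered (100% within 0.001 of a whole number), summed over clusters and scaled to CPM. This rescaling underlies every comparison between the separately normalized tables.

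Ratios used no pseudocount and genes of at least 10 CPM in either library. Limits are exact Poisson (levels) or derived from exact Clopper-Pearson limits (ratios). With 1 library per group no test was possible. Recovery and limits were tested on simulated data. Members and gene lists were chosen with earlier results of these data known. The genes named were the members, the list genes on which a result turned and the 3 most like each member, with T cell receptor and immunoglobulin segments left out. Some genes that met this rule are not reported here. Doublets were not removed. Positions are from GENCODE M21. Python 3.11.15, numpy 2.4.6, pandas 2.3.3 and scipy 1.17.1 were used.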

Additional observations from a re-analysis of the deposited data

How the results depend on the processing

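The median log2 ratio of the 6 genes in the organ comparison (-1.32) was -1.48 with a library total without receptor segment, mitochondrial and ribosomal genes, -1.65 without the clusters with raised markers of other cells, and -1.23 without the deepest cluster of each library, which was also the cluster highest in cycling markers (-1.23). In the age comparison (-0.68) it was -0.81 with cells weighted equally and -0.58 when scaled by the median gene ratio, a shift of 0.10 that left 1 of 2 genes at least 2-fold lower, *Satb1*, and put *Tcf7* at 0.04, the only sign change among 96 single-gene values, of which 32 moved beyond counting limits. The deepest and the cycling clusters were the same, so the values without them entered the 96 and the 32 more than once. Separation of all 12W spleen from all kidney clusters went from 1 to 3 genes without the clusters with raised markers of other cells. The organ count of 5 was 4 with cells weighted equally, a pseudocount of 1 CPM, without the deepest clusters, or without clusters of at least 5% mitochondrial UMIs, an alternative added after seeing the data, like leaving out each cluster in turn. At 1.5-fold the counts were 3 and 5. The causes were not tested. No paired analysis was possible because each group is 1 pooled library. Depth limits *Bach2* and kidney *Satb1* most, with 366 and 615 UMIs in kidney.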
